A study of Mus musculus with 9 samples.

Results

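Osteoblast identity and mineralisation were followed through 9 genes: the transcription factors Sp7, Dlx3, Dlx5 and Msx2, the enzymes Alpl and Phex, and the secreted matrix proteins Ibsp, Dmp1 and Mepe. They were found as every array probe whose annotated gene symbol is one of these names, which gave 11 probes among 25697. Of the 9 genes, 6 were detected on at least 3 of the 9 arrays and entered the test, out of 10073 genes tested, and Dlx5, Msx2 and Dmp1 did not.

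RNA came from sorted cells, positive for the red protein tomato, of the tibial periosteum (the cell layer that covers bone) or of periosteum and callus of αSMACreERT2/Ai9 mice of strain B6;129S6. In all groups a Cre recombinase that needs tamoxifen is driven by the alpha smooth muscle actin promoter, and the Ai9 reporter makes recombined cells and their descendants express tomato. Tamoxifen was given to all animals in 2 doses of 75 µg per g. There were 3 groups of 3 pools: unfractured mice of 4 to 5.5 months, taken at day 2 after tamoxifen with 8 to 9 animals a pool, mice of 2 to 5.5 months taken at day 2 after fracture with 7 to 8 animals a pool, and mice of 3 to 5.5 months taken at day 6 after fracture with 4 to 8 animals a pool. By sex, 2 pools of each group were male and 1 was female, and no unfractured pool was taken at day 6, so fracture and day of collection cannot be told apart in that comparison. The label marks cells by the past activity of a smooth muscle promoter, so the sort does not select osteoblasts as such.

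Osteoblasts arise from mesenchymal progenitors under the transcription factor Runx2 and, downstream of it, Sp7 (osterix), with Dlx and Msx homeodomain proteins tuning the same genes. They first raise alkaline phosphatase and lay down type I collagen, then add acidic phosphoproteins that bind mineral, and the cells that become buried as osteocytes express Dmp1, Phex and Mepe most strongly. In a fracture callus, bone forms directly under the periosteum while cartilage fills the gap, and hypertrophic chondrocytes also express alkaline phosphatase, Ibsp and Sp7.

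Between 10387 (40.4%) and 14173 (55.2%) of the probes were detected per array, and 3 arrays a group limit the precision of every value. Acta2, whose promoter drives the label, was detected in all 9 pools. Its log2 intensities were 16.07, 16.09 and 15.57 without fracture, 14.11, 15.75 and 15.93 at day 2, and 14.09, 15.27 and 15.22 at day 6. Unfractured replicate 3, day 2 replicate 1 and day 6 replicate 1 stood apart by macrophage and leukocyte transcripts: the mean log2 intensity of 12 such genes was 11.65, 12.97 and 11.49 there and 7.50 to 9.13 in the other 6 pools. These 3 pools are called leukocyte-rich below, and for the members and the genes that turn on them changes are also given without these pools. Neutrophil transcripts (9 genes) were high in the same pools and in unfractured replicate 1, with means of 12.74 to 14.89 against 10.19 to 11.28 elsewhere. Unfractured replicate 1, with a neutrophil mean of 13.34, stayed in the fits without the leukocyte-rich pools. All 11 chondrocyte markers were tested, and their mean lay between 6.28 and 7.11 in the unfractured and day 2 pools and between 11.52 and 12.64 at day 6. Pools mix cells, so more cells of a type and more RNA per cell cannot be told apart in any value that follows.

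The 3 members whose day 6 values lay wholly above both other groups were Sp7, Alpl and Ibsp. Their means were 3.86-fold, 3.96-fold and 7.27-fold those of the unfractured pools. No member passed the test at day 6 against unfractured (limma, two-sided moderated test, Benjamini-Hochberg adjusted p under 0.05), where 221 of 10073 genes rose (2.19%) and 63 fell (0.625%). Under median scaling in place of quantile normalisation 264 rose and 7 fell. At an unadjusted p under 0.05, 3 of the 6 members tested were higher, beside 21% of all genes that were past it in either direction. The median log2 change of the 6 was 1.79, against 0.04 for all genes tested. Groups that do not overlap in this direction were seen for 3 of the 6 members and for 14.2% of all genes.

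**Figure D1:**
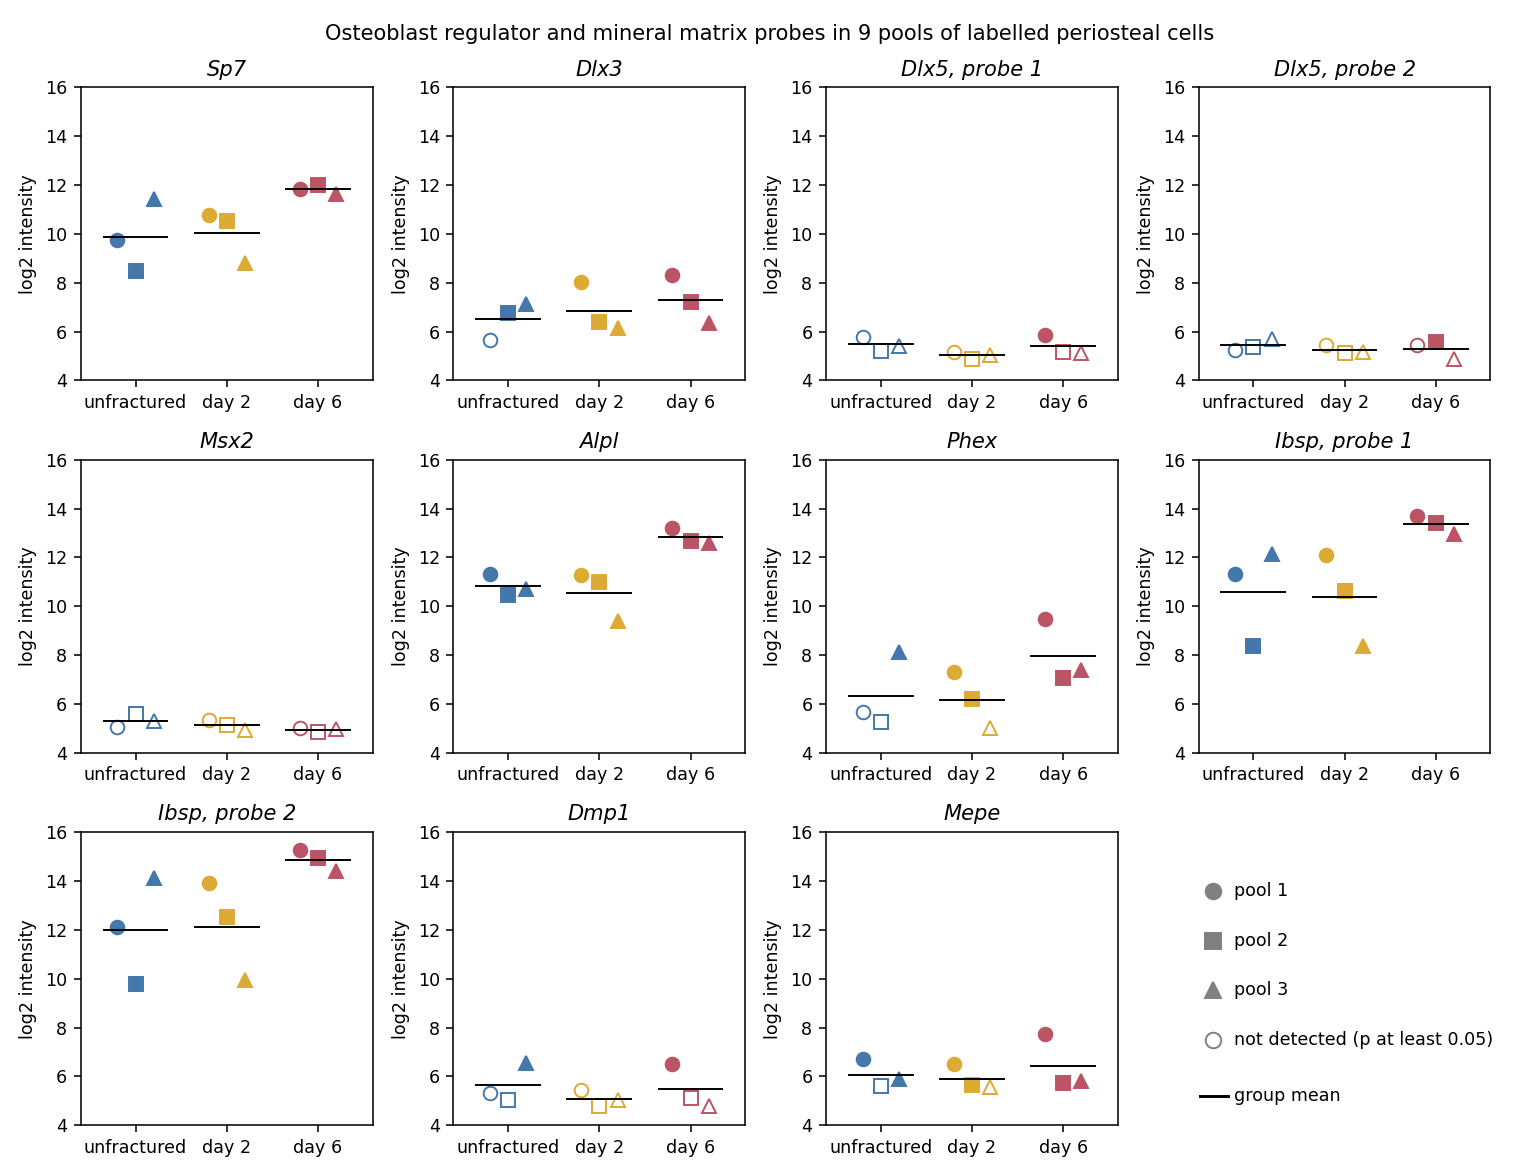
Each panel shows 1 probe, with log2 intensity after background correction and quantile normalisation on the vertical axis and the 3 groups on the horizontal axis. Circles, squares and triangles are replicates 1, 2 and 3, open symbols are pools where the probe was not detected, and bars are group means. All Sp7, Alpl and Ibsp points at day 6 lie above the points of the other groups, and Msx2 is open throughout.

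Sp7, the zinc finger factor without which mice form no bone, was detected in every pool. Log2 intensities in replicates 1, 2 and 3 were 9.73, 8.48 and 11.43 without fracture, 10.79, 10.54 and 8.81 at day 2, and 11.84, 12.01 and 11.64 at day 6. The day 6 pools were close together (SD 0.19, n = 3), while the unfractured (SD 1.48, n = 3) and day 2 pools (SD 1.07, n = 3) were spread, and the leukocyte-rich unfractured replicate 3 came within 0.21 of the lowest day 6 pool. The log2 change from unfractured to day 6 was 1.95 ± 0.74 (SE, n = 3 pools a group; limma adjusted p = 0.186), with an unadjusted 95% interval of 0.27 to 3.63. Against day 2 it was 1.78 ± 0.74 (adjusted p = 0.393).

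The result for Sp7 turned on 1 control pool. Without unfractured replicate 3 the change was 2.72 (limma adjusted p = 0.0292), in a fit where 824 of 10073 genes rose and 744 fell. Without all 3 leukocyte-rich pools it was 2.72 ± 0.67 (6.59-fold, adjusted p = 0.0336), where 16.4% of all genes rose and 14.1% fell. Among those 3 pools alone, 1 a group and so without a test, the difference was 0.41. The part of leukocyte content in these values was not tested.

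Dlx3, a homeodomain factor of bone, tooth and hair whose gene lies beside Dlx4, was detected in 8 of 9 pools. Unfractured pools gave log2 intensities of 5.66 (not detected), 6.77 and 7.11, day 2 pools 8.04, 6.37 and 6.16, and day 6 pools 8.33, 7.20 and 6.34. The 2 highest values were replicate 1 of day 6 and of day 2, both leukocyte-rich, and all groups overlapped. Its change at day 6 against unfractured was 0.78 ± 0.66 (limma adjusted p = 0.539, interval -0.72 to 2.28), and without the leukocyte-rich pools it was 0.56 ± 0.46 (adjusted p = 0.389).

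Dlx5 and Msx2, homeodomain factors that act early in the osteoblast lineage, were at background in nearly all pools. The first Dlx5 probe was detected only in day 6 replicate 1 (with a detection p-value of 0.015) and the second only in day 6 replicate 2 (0.0451), so the 2 probes detected it in different pools. The Msx2 probe was detected in none of the 9 pools, with detection p-values of 0.128 to 0.624. Log2 intensities of these 3 probes ran from 4.85 to 5.87, a range in which no order among groups can be read. With no detection filter (16593 genes tested by limma), none of Dlx5, Msx2 and Dmp1 passed in any comparison (lowest adjusted p = 0.402).

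Alpl, tissue-nonspecific alkaline phosphatase, cleaves the mineralisation inhibitor pyrophosphate and frees phosphate. RefSeq (GRCm38.p6) gives it 2 promoter windows, each from 250 bases before a start site to 50 bases after it. They are printed because both are possible sources of the member transcript with the smallest p-value for its day 6 differences, and the array does not tell them apart. Capitals mark matches, on either strand, to GGGCGG (the GC box) and to TATAAA.

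Alpl promoter 1, chr4:137796335-137796634, minus strand: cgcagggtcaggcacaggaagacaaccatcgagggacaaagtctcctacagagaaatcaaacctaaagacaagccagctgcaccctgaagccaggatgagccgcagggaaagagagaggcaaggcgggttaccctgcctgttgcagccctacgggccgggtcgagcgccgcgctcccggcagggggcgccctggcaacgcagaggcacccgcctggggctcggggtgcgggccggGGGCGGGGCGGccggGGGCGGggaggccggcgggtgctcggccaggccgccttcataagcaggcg

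Alpl promoter 2, chr4:137766426-137766725, minus strand: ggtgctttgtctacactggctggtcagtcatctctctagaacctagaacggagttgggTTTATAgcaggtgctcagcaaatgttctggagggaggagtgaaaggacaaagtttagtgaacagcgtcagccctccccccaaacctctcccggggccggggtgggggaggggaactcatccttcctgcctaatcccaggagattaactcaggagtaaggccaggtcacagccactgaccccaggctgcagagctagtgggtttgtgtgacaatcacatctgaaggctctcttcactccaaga

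The first window was 70.0% G and C and held 3 GC boxes, of which 2 overlap by 1 base, and the second was 54.3% G and C and held none. The second held TATAAA once, on the reverse strand, 192 bases upstream of the start. Of 32841 mouse promoter windows of this length, 35.7% held a GC box and 13.6% held TATAAA on either strand.

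The Alpl probe was detected in every pool. Log2 intensities were 11.31, 10.46 and 10.72 without fracture, 11.29, 10.99 and 9.38 at day 2, and 13.19, 12.68 and 12.58 at day 6. The lowest day 6 pool stood 1.27 above the highest pool of the other groups. The log2 change was 1.98 ± 0.49 against unfractured (limma adjusted p = 0.0681, interval 0.87 to 3.10) and 2.27 ± 0.49 against day 2 (4.81-fold, adjusted p = 0.0742, interval 1.15 to 3.38).

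Neither Alpl difference passed as fitted, and both lay close to the threshold. Against unfractured the change passed under 7 of 22 alternative settings, among them the deposited value table (adjusted p = 0.0471), sex in the model (adjusted p = 0.0405) and leaving out day 2 replicate 3 (adjusted p = 0.0290), a pool that enters this comparison only through the shared spread. Over the 22 settings its adjusted p ran from 0.00464 to 0.213. Its change was 1.74 ± 0.57 without the 3 leukocyte-rich pools (adjusted p = 0.0708), and the difference among those pools alone was 2.47, with no test.

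Phex, a membrane endopeptidase whose loss raises the phosphate-wasting hormone Fgf23, was low and detected in 6 pools. In the unfractured group the log2 intensity was 5.66 and 5.25 in replicates 1 and 2, both not detected, and 8.11 in replicate 3. It was 7.30 and 6.21 in day 2 replicates 1 and 2, and 5.01 in replicate 3, where it was not detected. At day 6, where every pool detected it, it was 9.47, 7.08 and 7.38. Within each group the leukocyte-rich pool was the highest.

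The change of Phex against unfractured was 1.63 ± 0.92 (limma adjusted p = 0.350, interval -0.46 to 3.73). Without the 3 leukocyte-rich pools it was 1.77 ± 0.43 (adjusted p = 0.0310). Since neither remaining unfractured pool detected Phex, the size of that change depends on the offset added before the logarithm.

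Ibsp, bone sialoprotein, is an acidic glycoprotein that binds collagen and nucleates mineral. Its gene lies in a cluster on mouse chromosome 5 in which the protein-coding genes Dspp, Dmp1, Ibsp, Mepe and Spp1 follow each other. The promoters of Ibsp and of its neighbour Mepe are printed because the first gene was well above background in every pool and the second near background in most. Capitals mark, on either strand, TGTGGT (a core of Runx binding sites), TAATT (a core of homeodomain sites), TATAAA and CCAAT.

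Ibsp, chr5:104299037-104299336, plus strand: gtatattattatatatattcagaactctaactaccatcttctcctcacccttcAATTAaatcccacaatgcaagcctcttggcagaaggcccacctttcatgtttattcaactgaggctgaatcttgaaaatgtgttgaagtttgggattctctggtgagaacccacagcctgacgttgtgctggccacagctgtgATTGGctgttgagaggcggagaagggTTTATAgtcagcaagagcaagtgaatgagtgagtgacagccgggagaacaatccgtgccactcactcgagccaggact

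Mepe, chr5:104325079-104325378, plus strand: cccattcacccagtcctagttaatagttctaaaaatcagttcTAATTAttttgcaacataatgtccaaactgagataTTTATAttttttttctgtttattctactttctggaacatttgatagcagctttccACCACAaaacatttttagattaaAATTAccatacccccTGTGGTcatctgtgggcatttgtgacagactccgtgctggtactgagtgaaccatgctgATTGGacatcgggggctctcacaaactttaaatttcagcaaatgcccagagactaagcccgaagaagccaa

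In the Ibsp window TATAAA lies on the reverse strand 28 bases upstream of the start and CCAAT on the reverse strand 54 bases upstream, and TAATT was found once, 197 bases upstream. The Mepe window held TGTGGT in 2 places and TAATT in 3, of which 2 overlap on opposite strands, with TATAAA 173 and CCAAT 21 bases upstream on the reverse strand. No TGTGGT was found in the Ibsp window, which says only that these letters are not in this stretch. Shares of all windows were 16.8% with TGTGGT, 27.0% with TAATT and 37.4% with CCAAT.

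Ibsp was read by 2 probes, and the brighter one stands for the gene. This probe had log2 intensities of 12.11, 9.80 and 14.12 without fracture, 13.93, 12.53 and 9.94 at day 2, and 15.28, 14.93 and 14.40 at day 6. On the raw scale these were intensities of 1356, 616 and 12303 in unfractured replicates 1, 2 and 3, 8499, 11763 and 1747 at day 2, and 30043, 46035 and 30194 at day 6. Within the unfractured and day 2 groups the log2 values covered more than 3 units, whereas at day 6 they were within 0.88. With either probe the leukocyte-rich pool was the highest of each group.

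The log2 change of Ibsp was 2.86 ± 1.18 against unfractured (limma adjusted p = 0.214, interval 0.18 to 5.54) and 2.74 ± 1.18 against day 2 (adjusted p = 0.414, interval 0.06 to 5.42). The second probe gave 2.74 ± 1.08 and 2.99 ± 1.08, with all probes tested on their own (adjusted p = 0.198 and 0.339). With both probes the day 6 mean was the highest of the 3 groups, while the small difference between day 2 and unfractured had opposite signs (0.12 for the brighter probe and -0.24 for the other). Without the leukocyte-rich pools the change against unfractured was 3.71 ± 1.07 (13.1-fold, adjusted p = 0.0502). Among the leukocyte-rich pools alone it was 1.16, with no test.

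Dmp1 and Mepe, phosphoproteins of osteocytes and their matrix, were at or near background in most pools. Dmp1 was detected in unfractured replicate 3 (log2 intensity 6.55, with a detection p-value of 0.00125) and day 6 replicate 1 (6.51, with 0.00251), both leukocyte-rich pools, and in no other pool, where it lay between 4.79 and 5.44. Mepe was detected in 7 pools at a detection p under 0.05 but in only 2 at a p under 0.01, day 2 replicate 1 and day 6 replicate 1. Unfractured pools had Mepe log2 intensities of 6.69, 5.62 and 5.90, day 2 pools 6.50, 5.63 and 5.56, and day 6 pools 7.75, 5.71 and 5.81.

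The change of Mepe at day 6 against unfractured was 0.35 ± 0.57 (limma adjusted p = 0.764), and it was -0.31 without day 6 replicate 1 and -0.40 without the leukocyte-rich pools, so its sign rested on day 6 replicate 1. Of the other osteocyte markers, Sost was detected in 0 pools and Fgf23 in 2, while Pdpn, which other stromal cells also express, was detected in all 9.

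**Figure D2:**
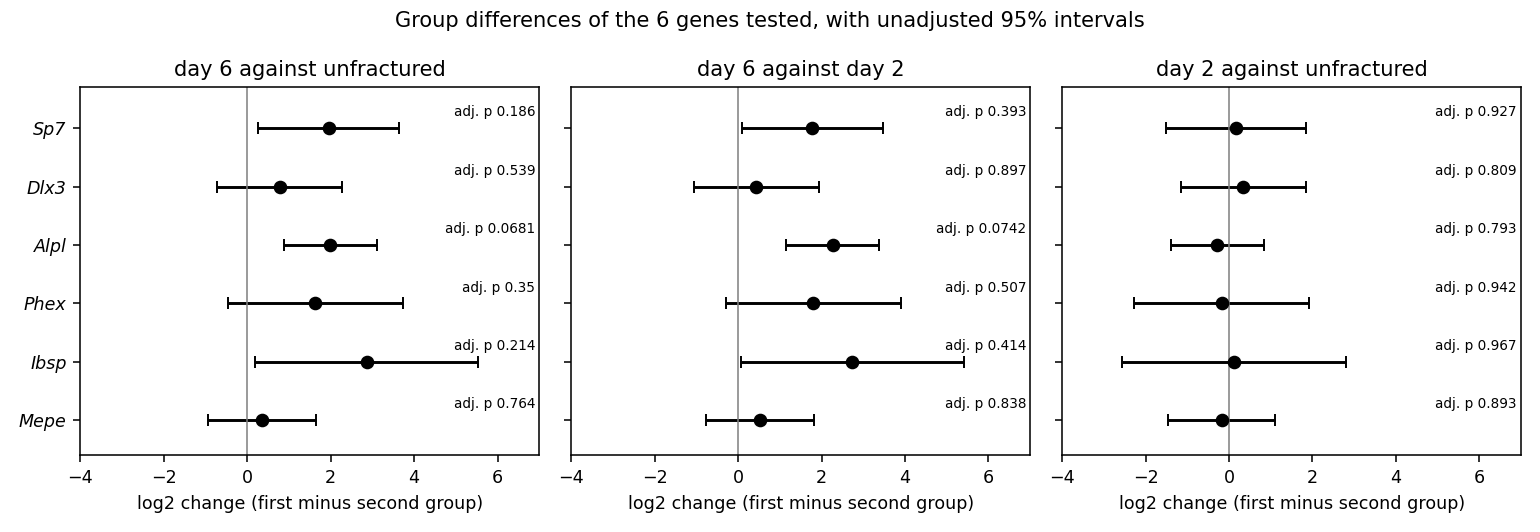
Points are log2 changes of the 6 genes tested, first group minus second, in the 3 comparisons, with unadjusted 95% intervals from limma and the adjusted p beside each. Intervals of Sp7, Alpl and Ibsp lie above 0 in both comparisons with day 6, and every interval of day 2 against unfractured includes 0.

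The comparison of day 6 with day 2 shares its day 6 pools with the one above, so the pair are not independent. None of the 6 members passed (limma), where 132 genes rose (1.31%) and 11 fell (0.109%). At an unadjusted p under 0.05, 3 members were higher, beside 11.6% of all genes in either direction, and 3 members and 11.8% of all genes had every day 6 pool above every day 2 pool. Phex had a change of 1.80 ± 0.92 (adjusted p = 0.507), Dlx3 0.43 ± 0.66 (adjusted p = 0.897) and Mepe 0.53 ± 0.57 (adjusted p = 0.838). The median log2 change over the 6 was 1.79, against -0.04 for all genes. Without the leukocyte-rich pools none of the 6 passed either: the changes were 2.15 for Sp7, 0.51 for Dlx3, 2.45 for Alpl, 1.62 for Phex, 3.43 for Ibsp and 0.17 for Mepe, with a smallest adjusted p of 0.0859 (Alpl).

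At day 2 no member passed against unfractured periosteum. The 6 log2 changes lay between -0.28 and 0.35, and the smallest adjusted p was 0.793 (limma). Without the leukocyte-rich pools none passed either (smallest adjusted p = 0.289, Mepe). No member was past an unadjusted p under 0.05, beside 1625 of all genes (16.1%). Of all genes 0 rose (0%) and 0 fell (0%) at an adjusted p under 0.05, and 10.9% had every day 2 pool above every unfractured pool, a pattern seen in no member. The intervals were wide, from -2.56 to 2.80 for Ibsp and from -1.39 to 0.83 for Alpl. That of Ibsp holds changes of several fold in both directions, and that of Alpl reaches further down than up.

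**Figure D3:**
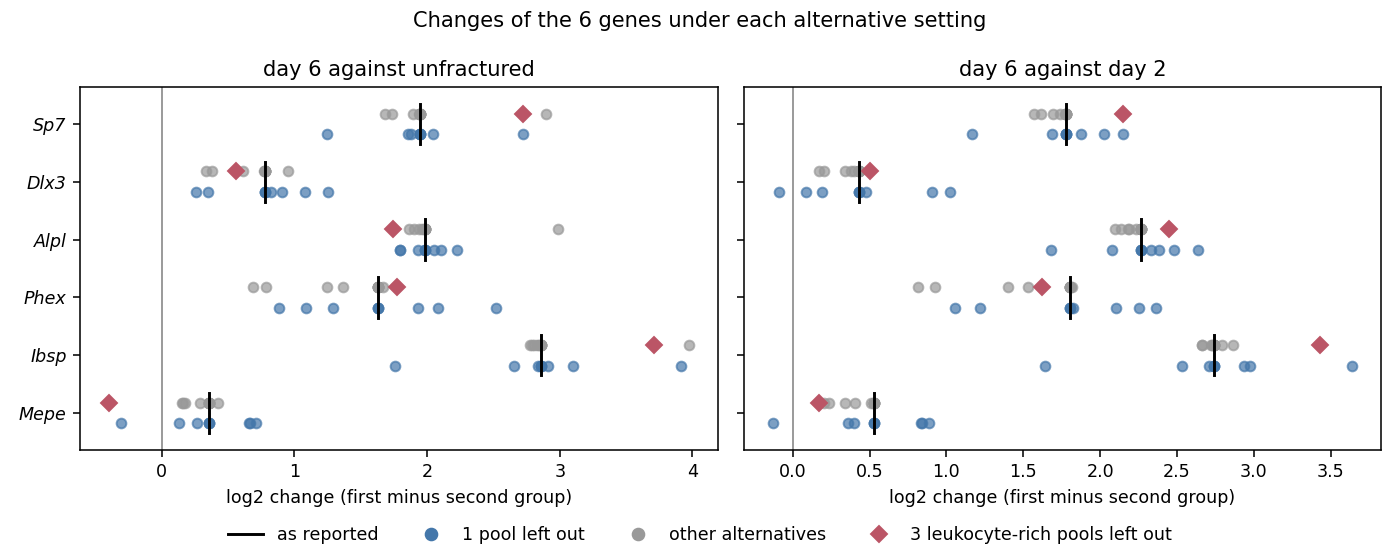
Each row is 1 gene, and the horizontal axis is its log2 change, first group minus second. The black line is the value as reported, blue points leave out 1 pool, grey points are other processing alternatives and red diamonds leave out the 3 leukocyte-rich pools. In these comparisons of day 6 with the other groups, values of Sp7, Alpl, Phex and Ibsp stay above 0 in every setting shown, and those of Dlx3 at day 6 against day 2 and of Mepe reach both sides of 0.

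Without the leukocyte-rich pools 2 of the 6 members rose at day 6 against unfractured, Sp7 and Phex. In that fit 16.4% of all genes rose and 14.1% fell, so many more genes passed there than with all pools. Signal also moved with group in these 6 pools: the unfractured pools detected 40.4% and 46.4% of probes, and the 4 fracture pools 52.1% to 55.2%. The part of this in the calls was not tested.

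Among other regulators of the osteoblast lineage 1 gene passed, Vdr. Of 16 listed, 13 had a probe, 10 were tested, 1 rose and 0 fell at day 6 against unfractured, with a median log2 change of 0.36. The gene that rose was Vdr, the vitamin D receptor, with log2 intensities of 6.93, 7.22 and 8.90 without fracture, 8.10, 8.76 and 8.90 at day 2, and 10.21, 10.31 and 10.26 at day 6. Its day 6 pools lay above all others and close together, and it rose by 2.58 ± 0.48 (limma adjusted p = 0.0276). That call ended in 10 of 22 settings: on leaving out unfractured replicate 1 or 2, day 2 replicate 2 or 3, or a single pool of day 6, whichever it was (adjusted p = 0.0539 to 0.129), with only these 2 groups fitted (adjusted p = 0.0762), with sex in the model (adjusted p = 0.0514) and with weights by animals pooled (adjusted p = 0.0557). With all pools none of the 10 passed at day 6 against day 2 or at day 2 against unfractured. Without the leukocyte-rich pools Vdr rose in all 3 comparisons, by 3.21 ± 0.19 at day 6 against unfractured (limma adjusted p = 0.00187), by 1.76 ± 0.19 at day 2 against unfractured (adjusted p = 0.0176) and by 1.46 ± 0.19 at day 6 against day 2 (adjusted p = 0.0241). In the last comparison 2.44% of all genes rose and 1.04% fell in those 6 pools. Without unfractured replicate 3 alone it passed at day 2 against unfractured (adjusted p = 0.0333) and at day 6 against day 2 (adjusted p = 0.0210), and it passed at day 6 against day 2 with only those 2 groups fitted (adjusted p = 0.0305). Runx2 and Dlx6 are not measured here, and Dlx1, Dlx2 and Dlx4 were detected in no pool.

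Of 18 further genes of mineral and bone matrix, 16 had a probe and 15 were tested. At day 6 against unfractured 1 rose and 0 fell, with a median of 0.73, and at day 6 against day 2 likewise 1 rose and 0 fell, with a median of 1.12. Both times this was Pth1r, the receptor for parathyroid hormone and its related peptide, which osteoblasts and chondrocytes express. Pth1r log2 intensities were 7.82, 7.91 and 9.30 without fracture, 9.66, 8.94 and 8.12 at day 2, and 11.68, 11.83 and 11.80 at day 6. It rose by 3.43 ± 0.48 against unfractured (limma adjusted p = 0.00984) and by 2.87 ± 0.48 against day 2 (adjusted p = 0.0245).

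The first call of Pth1r ended without day 6 replicate 2 or 3 (adjusted p = 0.0612 and 0.0629), and without the leukocyte-rich pools the changes of Pth1r were 3.96 ± 0.30 against unfractured (adjusted p = 0.00271) and 3.29 ± 0.30 against day 2 (adjusted p = 0.0105). The call against day 2 ended with the replicate number as a block (adjusted p = 0.0820), with weights by animals pooled (adjusted p = 0.0545), and on leaving out day 2 replicate 2 or 3 or a single pool of day 6, whichever it was (adjusted p = 0.0672 to 0.127). Chondrocyte markers moved with these calls: 10 of 11 rose at day 6 in both comparisons, among them Col10a1 of hypertrophic cartilage, at least 44.2-fold against the unfractured pools, which did not detect it. Values of Col10a1 at day 6 were 10.33, 12.14 and 12.36, lowest in the leukocyte-rich replicate 1. Among the day 6 pools Alpl and Ibsp were highest in replicate 1, and Sp7, Vdr and Pth1r in replicate 2. Vdr and Pth1r were lowest in replicate 1, by small margins. The part of cartilage cells in the values of Alpl, Ibsp, Sp7, Vdr and Pth1r was not tested.

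The bone matrix genes Sparc and Col1a1 did not pass with all pools. Sparc, osteonectin, had a log2 change of 0.77 ± 0.25 (limma adjusted p = 0.128) and Col1a1, the main collagen of bone, 0.82 ± 0.32 (adjusted p = 0.199) at day 6 against unfractured. All day 6 pools lay above all unfractured pools for both genes, by 0.28 and 0.12 at the closest. Raw intensities at day 6 were 54943 to 69135 for Sparc and 63472 to 66533 for Col1a1. The highest raw values on those arrays were 68787 to 71260, so both genes lay near the top of the scale. Whether this limited their differences was not tested. Both passed without the leukocyte-rich pools, where Sparc rose by 0.96 ± 0.17 (limma adjusted p = 0.0129) and Col1a1 by 0.94 ± 0.20 (adjusted p = 0.0217). Both also passed without unfractured replicate 3 alone (adjusted p = 0.0193 and 0.0467), in a fit where 824 of 10073 genes rose and 744 fell. Sparc also passed with the deposited value table (adjusted p = 0.0486). Spp1 (osteopontin) is not measured here, and Dspp, the cluster member known from dentin, was detected in 1 pool.

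**Figure D4:**
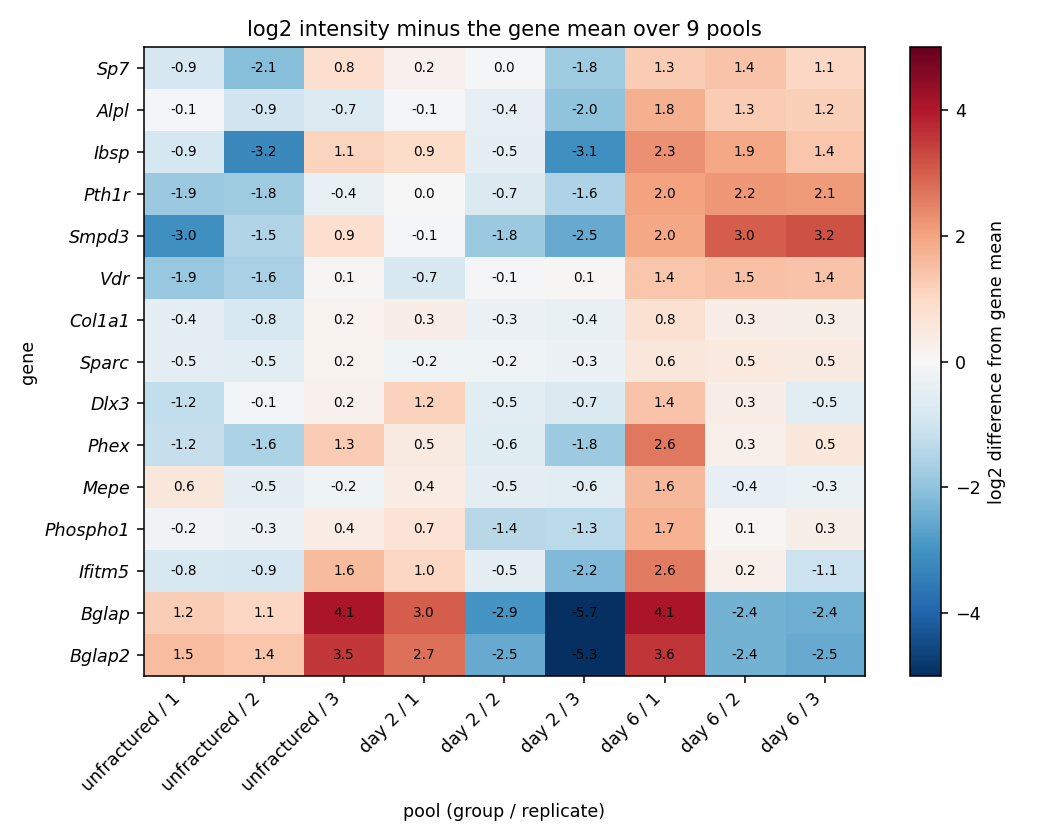
Each cell is a gene's log2 intensity in 1 pool minus the mean of that gene over the 9 pools, with columns as group and replicate. Sp7, Alpl, Ibsp, Pth1r, Smpd3 and Vdr are above their means in all day 6 pools, whereas Bglap and Bglap2 are highest in unfractured replicate 3, day 2 replicate 1 and day 6 replicate 1.

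Bglap, osteocalcin, a protein of mature osteoblasts, followed another order. Log2 intensities of Bglap were 12.87, 12.70 and 15.73 without fracture, 14.66, 8.71 and 5.92 at day 2, and 15.72, 9.29 and 9.20 at day 6. Each group's leukocyte-rich pool was its highest, and the other fracture pools lay below every unfractured pool. The change at day 6 against unfractured was -2.36 ± 2.37 (limma adjusted p = 0.610). Without the leukocyte-rich pools it was -3.54 ± 0.86 (adjusted p = 0.0320), and at day 2 it was -5.47 ± 0.86 (adjusted p = 0.0244), in a fit where 10.8% of all genes rose and 9.99% fell at day 2. Bglap2, a near-identical neighbour whose probe may read the same transcripts, gave -3.92 ± 0.87 and -5.39 ± 0.87 in those 6 pools, and was chosen after its values were seen. Over the same 6 pools Sp7, an earlier marker of the lineage, had a change of 2.72 at day 6 against unfractured. Of other genes of later stages, Ibsp had a change of 3.71 there and Phex of 1.77. Mepe, near background, had -0.40 ± 0.36 (limma adjusted p = 0.437), so no direction can be read for it.

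**Figure D5:**
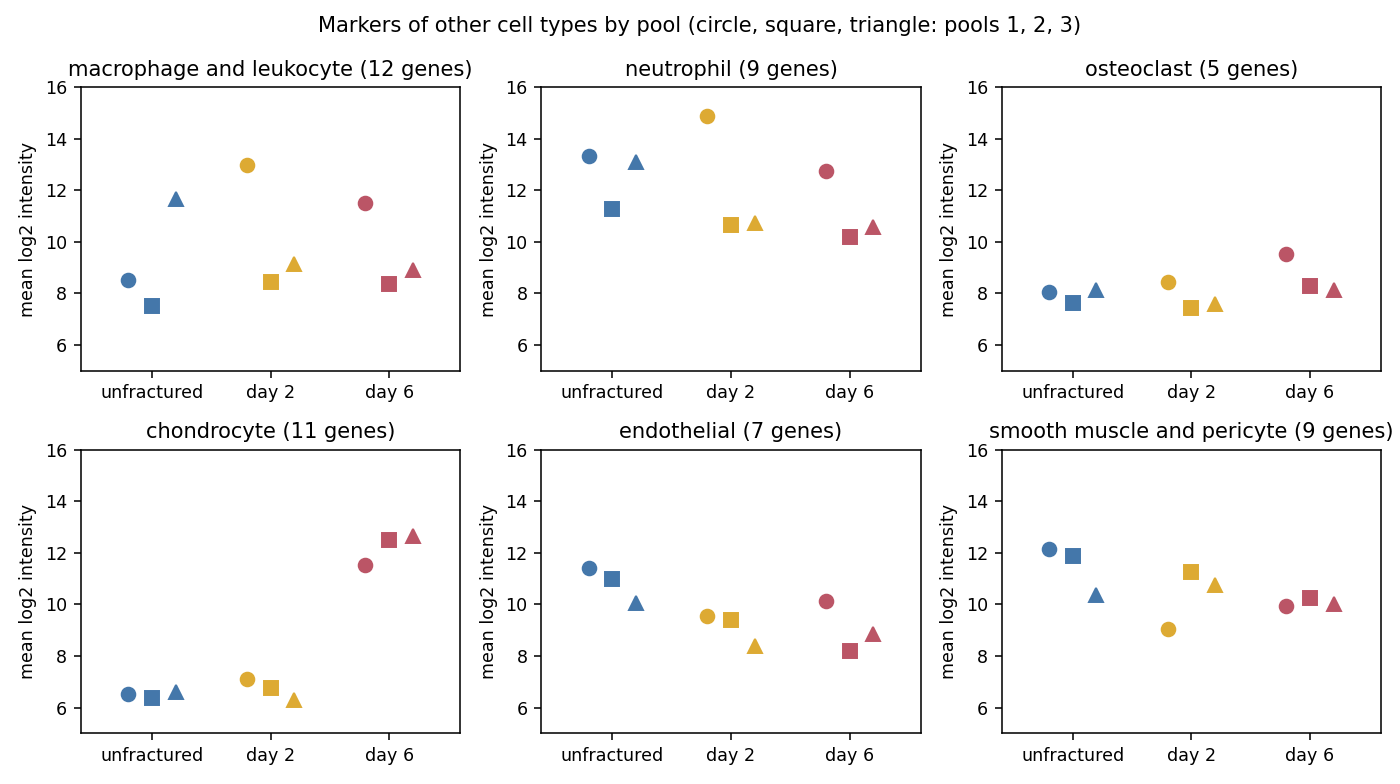
Each panel gives the mean log2 intensity over the tested markers of 1 other cell type for every pool, by group, with circles, squares and triangles for replicates 1, 2 and 3. Macrophage and leukocyte means are high in 1 pool a group, and chondrocyte means are high in the 3 day 6 pools.

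Bone-resorbing osteoclasts share tissue with osteoblasts, and 5 of 8 of their markers were tested. The mean of the 5 was 7.64 to 8.15 without fracture, 7.45 to 8.44 at day 2, and 9.52, 8.30 and 8.14 at day 6. Ctsk, cathepsin K, which periosteal cells express too, rose by 1.17 ± 0.25 at day 6 against unfractured (limma adjusted p = 0.0484), a call that was not tried under the alternatives. The defining markers Calcr and Dcstamp were detected in 2 pools each and Atp6v0d2 in none. Oscar was detected in no unfractured pool and in every day 6 pool, with a change of 1.33 ± 0.39 (limma adjusted p = 0.105). Mmp9 was detected in all 9 pools, with a change of 0.85 ± 1.29 (adjusted p = 0.749). Acp5 and Ocstamp changed by -0.07 and 0.24 at day 6 against unfractured.

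Profiles over the 9 pools were compared by the root mean square difference of log2 values after each gene was centred on its mean, as a description with no test. Of 10072 genes the one nearest to Ibsp was Sp7 (0.75, against an SD of 1.93 for Ibsp itself), followed by Kcnk1 (0.87) and Mmp13 (0.92), a collagenase of hypertrophic cartilage and osteoblasts. Nearest to Sp7 were Mmp13 (0.45), Hpgd (0.47) and Agt (0.51), while Phex ranked 22, Alpl 34 and Ibsp 39 in nearness to it. Nearest to Phex were Kcnk1 (0.37), Mmp13 (0.43) and Cpz (0.44). Alpl was nearest to Ptprv (0.44), a phosphatase known from osteoblasts, C130050O18Rik (0.44) and Kcnma1 (0.46). Dlx3 was nearest to Hk1 (0.22), Tgfb1 (0.30) and Pdcd6ip (0.31), and Mepe, mostly near background, to Gm20747 (0.33), Tbc1d9 (0.35) and Klra16 (0.36). Mmp13 was among the 3 nearest genes of Sp7, Phex and Ibsp, and Kcnk1 of Phex and Ibsp.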

How the data were processed

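Biotin-labelled RNA of 9 pools was hybridised to Illumina BeadChips, 1 array a pool, per the labels. The deposited table holds a linear, non-normalised intensity and a detection p-value for each probe and array, exported by the authors from GenomeStudio, per the submitters' processing notes. The neqc method of limma 3.58.1 (R 4.3.3) was applied: normexp background correction, with negative-control statistics estimated through the detection p-values, an offset of 16, quantile normalisation and log2. The deposited value table, linear intensities quantile-normalised by the authors as the values themselves show, served as an alternative. Of 25697 probes, 23978 carried 1 symbol and 1719 none. Only probes detected (p under 0.05) on 3 or more arrays were kept, and the probe of highest mean stood for its gene. All 9 arrays were fitted with limma (lmFit, contrasts.fit, eBayes; no covariates), two-sided, Benjamini-Hochberg adjusted over 10073 genes, and "rose" or "fell" means an adjusted p under 0.05. A change against a group that did not detect the gene depends on the offset, and a lower bound is given where "at least" is written. The procedure was tested on simulated data whose noise was independent between genes and pools. Shifts shared by many genes of a pool, such as those of the leukocyte-rich pools, were not simulated.

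Pools are separate samples in the labels, and p-values measure the spread between them. For day 6 and day 2, same-numbered pools deviated together (correlations 0.634, 0.524 and 0.512), which comes from the values alone. Replicates 2 and 3 also did so across numbers (0.570 and 0.326). Replicate 1, leukocyte-rich in both groups, deviated against them (-0.627 to -0.471). Pairing by number therefore cannot be read from these values. For the other comparisons same-numbered pools did not deviate together in every pair (-0.31 to 0.40). The genes, lists and alternatives were chosen with earlier results of these data known. Named are the 9 genes, every gene of the other bone lists that passed plus Runx2, Spp1, Bglap, Sparc and Col1a1, the 3 nearest profiles of each tested gene, and markers whose values stand beside a result; Smpd3, Bglap2, Ifitm5 and Phospho1 and the undetected or unmeasured list genes were named after their values were seen. Promoters are RefSeq windows of GRCm38.p6; 6 of the 9 genes matched, and Sp7, Dlx3 and Dlx5 have no window here. The array files name no genome build, so no probe positions are given.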

Additional observations from a re-analysis of the deposited data

How the results depend on the processing

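Counts of calls and the changes of the 6 tested members and of Vdr, Pth1r, Bglap, Sparc and Col1a1 were recomputed under 22 alternative settings (Mepe under 21), 9 of which left out 1 pool, and 753 of the 855 recomputed values kept their direction and side of the threshold (counts, within 1.5 times). The count of members called at day 6 against unfractured, 0 as reported, was 1 without background correction, with the deposited value table, with only the 2 groups compared, with sex in the model and with the replicate block (Alpl each time), 2 under median scaling (Alpl and Ibsp), 2 without the leukocyte-rich pools, and 0 to 1 without 1 pool. At day 6 against day 2, 0 as reported, it was 1 without background correction, with the deposited value table and with sex in the model, and 0 with the replicate block, which changed no member's call there. At day 2 against unfractured it was 0 in every setting.

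Of the log2 changes, that of Mepe at day 6 against unfractured turned to -0.40 without the leukocyte-rich pools, and at day 2 against unfractured those of Alpl turned to 0.80 under median scaling, of Phex to 0.15 without the leukocyte-rich pools, and of Ibsp and Sparc to -0.059 and -0.066 with the mean of probes. Leaving out 1 pool at a time gave ranges across 0 at day 2 against unfractured for Sp7 (-0.53 to 0.94), Dlx3 (-0.25 to 0.70), Alpl (-0.65 to 0.31), Phex (-0.73 to 0.71), Ibsp (-0.98 to 1.22), Mepe (-0.48 to 0.13) and Sparc (-0.094 to 0.26). It did so at day 6 against day 2 for Dlx3 (-0.086 to 1.03), Mepe (-0.13 to 0.89) and Bglap (-0.51 to 4.09), and at day 6 against unfractured for Mepe (-0.31 to 0.71). The causes were not tested. Median scaling moved the median log2 change of all genes to 0.72, 0.83 and -0.13 for day 6 against unfractured, day 2 against unfractured and day 6 against day 2, and changes under it are relative to that.

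Among all genes, 284 were called at day 6 against unfractured as reported, 139 with only the 2 groups compared and 3068 without the leukocyte-rich pools. It was 53 to 1568 without 1 pool (1568 without unfractured replicate 3). The count was 340 without background correction, 271 under median scaling and 362 with the deposited value table. With sex in the model it was 204, and with the replicate block 319. At day 2 against unfractured the count was 0 as reported, 2095 without the leukocyte-rich pools and 0 to 924 without 1 pool (924 without unfractured replicate 3). At day 6 against day 2 it was 143 as reported, 80 under median scaling, 216 with only the 2 groups compared, 89 with the replicate block, 351 without the leukocyte-rich pools and at least 47 without 1 pool. Signals near background limit Dlx5, Msx2, Dmp1, Mepe and, in the unfractured pools, Phex. With a detection p under 0.01 required on 3 arrays Mepe was not tested.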

Other observations

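Smpd3, a sphingomyelinase of bone and cartilage that mineralisation needs in mice, had log2 intensities of 6.80, 8.33 and 10.70 without fracture, 9.78, 8.01 and 7.33 at day 2, and 11.80, 12.87 and 13.04 at day 6. Its day 6 pools lay above all others, by 3.96 ± 0.97 on average against unfractured (limma adjusted p = 0.0660), and by 5.39 ± 0.53 without the leukocyte-rich pools (adjusted p = 0.00401). Ifitm5, a membrane protein of osteoblasts, had 8.38, 8.34 and 10.76 without fracture, 10.23, 8.69 and 6.99 at day 2, and 11.78, 9.44 and 8.14 at day 6. Phospho1, a phosphatase of matrix vesicles, had 6.27, 6.15 and 6.81, then 7.14, 5.07 and 5.10, and then 8.18, 6.53 and 6.72 in the same order. Within each group both genes were highest in the leukocyte-rich pool, as were Phex, Bglap, Bglap2, Dlx3 and both probes of Ibsp. Dmp1 had the same order, though no day 2 pool detected it. Macrophages and osteoblasts are different lineages, and the reason that their transcripts were high in the same pools was not tested.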
